A study of Mus musculus with 18 samples.

Results

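Small nucleolar RNAs (snoRNAs) and small Cajal body RNAs (scaRNAs) were read from a table of 41079 mouse genes in 18 melanomas. A gene was taken when its symbol began with Snora, Snord or Scarna followed by a digit and its mean over the 18 tumors was above 0 FPKM (fragments per 1000 bases of a gene, scaled to 1000000 assigned fragments). Of 155 matching symbols, 135 met this rule: 87 Snord, 39 Snora and 9 Scarna genes. The remaining 20 were listed at 0 in every tumor, namely 17 Snord116l copies, Snord3b4, Snord64 and Snora35. The members with the lowest means above 0 were Snord3b1 (0.00954 FPKM) and Snord118 (0.00959 FPKM).

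The tumors were grown from B16F10, a mouse melanoma cell line, injected under the skin of female C57BL/6 mice, and 3 tumors were sequenced from each of 6 treatment groups. From day 6, at a tumor volume of about 50 mm3, tumors were injected every 2 days, and they were taken 48 h after the last injection. The PBS group received buffer alone, Free PS473 received a pistol ribozyme (a self-cleaving catalytic RNA, here designed to cut PD-L1 mRNA) without a carrier, and PS473@CPs received it with cationic polymers. NKMOF-101-[Mn] received a manganese metal-organic framework without ribozyme, M5@NKMOF-101-[Mn] the framework loaded with a catalytically inactive mutant ribozyme, and PS473@NKMOF-101-[Mn] the framework loaded with the active ribozyme. The sample titles of the last group read NKMOF-102, while the treatment record and the design text read NKMOF-101. The ages of the mice were not given, all groups carried the same implanted cell line, and each tumor was a bulk mixture in which fewer cells of a type and less RNA per cell cannot be told apart. Genes of the melanocyte lineage were high in all 18 tumors (10 of 10 markers in the table, mean log2(FPKM + 1) of 7.37 to 8.17), while skin epithelium markers ranged from 0.14 to 6.38 on the same scale.

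SnoRNAs are short nuclear RNAs that pair with ribosomal RNA precursors and guide their chemical modification. Box C/D snoRNAs (Snord) guide ribose methylation by fibrillarin, box H/ACA snoRNAs (Snora) guide pseudouridine formation by dyskerin, and scaRNAs (Scarna) guide the same reactions on spliceosomal RNAs in Cajal bodies. In mammals most of them are cut out of introns of longer host genes, and the mature forms carry no poly(A) tail, whereas the libraries here were made from RNA enriched with oligo(dT) beads. The fragments counted at these genes can therefore come from a mature snoRNA or from unspliced or intron-retaining host RNA, and the table does not separate the sources.

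The sequences of members with high levels, with a few that were hard to measure, show what these genes are. They were read by gene name from the GENCODE M21 transcripts (build GRCm38), which hold a transcript of snoRNA or scaRNA type for 127 of the 128 members found there by name. Capitals mark a box C core (TGATG within the first 20 bases) and a box D (CTGA within the last 15 bases) in Snord genes, and ACA within the last 8 bases in Snora genes, searched on the transcript strand only. Snord78 and Snord47 lie in the same host, Gas5, a non-coding gene with several snoRNAs in its introns. Snord96a, Snord12 and Snora65 lie in Rack1, Zfas1 and Rpl12.
Snord78: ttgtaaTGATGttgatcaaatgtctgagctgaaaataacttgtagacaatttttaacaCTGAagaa
Snord47: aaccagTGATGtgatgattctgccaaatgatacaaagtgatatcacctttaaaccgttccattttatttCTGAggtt
Snord96a: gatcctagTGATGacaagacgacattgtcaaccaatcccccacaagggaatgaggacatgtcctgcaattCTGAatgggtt
Snord12: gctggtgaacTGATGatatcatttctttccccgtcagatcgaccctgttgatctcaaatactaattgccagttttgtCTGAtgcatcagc
Snora65: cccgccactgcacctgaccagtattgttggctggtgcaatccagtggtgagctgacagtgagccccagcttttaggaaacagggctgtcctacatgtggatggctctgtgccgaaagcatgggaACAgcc

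The remaining sequences stand for members that were hard to measure. Snord118 has no annotated host and was above 0 in 1 tumor, Snord98 has the shortest length in the table, and Snora20 is listed at less than its GENCODE length and entered the comparisons with few fragments.
Snord118: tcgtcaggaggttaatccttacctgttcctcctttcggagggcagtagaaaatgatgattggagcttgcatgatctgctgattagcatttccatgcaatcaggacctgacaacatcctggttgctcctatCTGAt
Snord98: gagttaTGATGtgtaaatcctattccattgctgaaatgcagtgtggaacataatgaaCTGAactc
Snora20: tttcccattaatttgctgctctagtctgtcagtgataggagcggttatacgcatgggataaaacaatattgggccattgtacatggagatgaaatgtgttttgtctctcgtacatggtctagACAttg
Both boxes were present in 64 of the 79 Snord members with a sequence (81%), and the ACA in 37 of 39 Snora members (94.9%). Over all 1558 snoRNA and scaRNA transcripts of that annotation, 22.6% held both boxes and 47.6% the ACA. These transcripts mix the classes, so their percentages are not a background for Snord or Snora genes alone. A missing box says only that those letters were not in the window.

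Levels ranged over more than 4 orders of magnitude among the members. Snord78 was the highest at a mean of 181.5 FPKM and carried 10.3% of all fragments assigned to members, and the 10 members with the most fragments carried 36.4%. After it came Snord96a (68.4 FPKM), Snora65 (52.4), Snora28 (34.3), Snord12 (30.6), Snord52 (30.03), Snord47 (29.9), Snord16a (28.1), Snord2 (27.4) and Snord14e (26.5). A mean of at least 10 FPKM was reached by 47 members and a mean of at least 1 FPKM by 113. By fragments rather than by FPKM, Snora7a (51.6 fragments per tumor), Snora81 (51.0), Snord22 (50.4) and Snora68 (48.0) also stood among the first 10. The median mean level was 7.14 FPKM for Snord, 7.15 for Snora and 0.638 for Scarna members.

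The place of a member in its host went with its level. In GENCODE M21, 120 of the 135 members lay inside another gene on the same strand, in 88 hosts. Of these members, 33 lay in genes for ribosomal proteins and 31 in hosts not typed as protein-coding. Where several genes contained a member, the one with the highest mean FPKM was taken as its host. The first 10 members by FPKM, and 18 of the first 20, lay wholly within an exon of some annotated host transcript. For 40 of the 53 members of this kind those transcripts included a retained-intron form, and for 37 they were of that form alone. These 53 members had a median of 12.8 FPKM and held 69.5% of the member fragments. The 58 members that lay in introns of every annotated host transcript had a median of 3.16 FPKM and held 21.8%. The 9 members partly in an exon had a median of 3.73 FPKM, the 8 without a host 1.18 FPKM and the 7 not found by name 0.152 FPKM. The annotation belongs to an earlier build than the GRCm39 named for the table, so the places were matched by name, and no test was made because members that share a host are not independent.

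**Figure D1:**
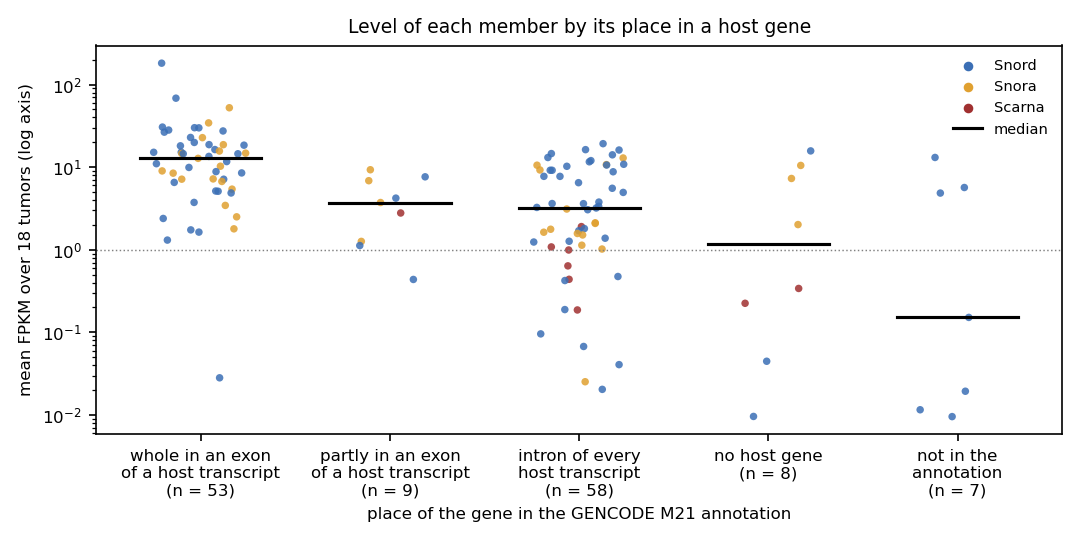
Mean FPKM over 18 tumors (log axis) of each of the 135 members, grouped by the place of the gene in GENCODE M21. Points are members colored by class, black bars are medians, and the dotted line is the limit of 1 FPKM for the tests. The median falls from 12.8 FPKM for members wholly in an exon of a host transcript to 3.16 for those in introns only and 1.18 for those with no host annotated there.

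The processing snoRNAs Snord3a, Snord13 and Snord118 had few or no fragments, the first not found by name in the annotation and the others without a host there. Snord3a, which acts in the first cleavages of the ribosomal RNA precursor, had a mean of 0.152 FPKM and was above 0 in 9 of 18 tumors, with a highest value of 0.577. Snord13 (0.0447 FPKM) was above 0 in 2 tumors and Snord118 (0.00959 FPKM) in 1. By contrast, the processing snoRNAs inside hosts named next were measured in every tumor. In the non-coding host Snhg1 this was Snord22 (18.7 FPKM, range 5.24 to 41.0). In Rcc1 they were Snora73b (10.7, range 2.92 to 18.7) and Snora73a (9.30, range 2.33 to 14.2). In Hspa8 they were Snord14e, Snord14d and Snord14c (26.5, 16.3 and 14.5). Snord14a, a further member of that family, is not given here. Other short RNAs that are made without a poly(A) tail were also low. The 11 of them in the table, fixed as a list that includes Rpph1, Rn7sk, Terc and Rmrp, had means of 0 to 0.527 FPKM, and 0 of the 11 reached the limit of 1 FPKM. Of the 8 members with no annotated host, the 4 named here after their values were seen were above 0 in all 18 tumors, namely Snord104 (15.7 FPKM), Snora43 (10.5), Snora17 (7.29) and Snora57 (2.02). A host whose span in GENCODE M21 does not contain the member on the same strand would be missed.

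Members of one host did not share one level. In Gas5 (160 FPKM), Snord78 stood at 114% of the host's FPKM, Snord47 at 18.7% and Snord80 at 14.3%. Rack1 (928 FPKM), a ribosomal scaffold protein gene, held Snord96a at 7.37% and Snord95 at 0.917% of its level. In Snhg12 (20.6 FPKM), the 4 members Snord99, Snora61, Snora44 and Snora16a stood at 89.6%, 71.1%, 49.8% and 35.0%. The 4 members of Rpl13a (702 FPKM), Snord34, Snord35a, Snord32a and Snord33, stood between 1.26% and 2.30%. Over the 113 members whose host is in the table the median was 5.51% of the host's FPKM, and 5 members lay above their host. Across the 100 of these with a mean of at least 1 FPKM, the rank correlation between member and host level was 0.37. This is across genes, some of which share a host or the same reads, and is given as a description.

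Length and counting limit what can be read from these values. The members have a median length of 83 bases in the table, from 28 for Snord98 to 275 for Scarna13, against a median of 2054 bases over all genes, and 85 of them are under 100 bases. At the median depth, 1 fragment was worth 1.76 FPKM in Snord98, 0.747 in Snord78 and 0.179 in Scarna13. The table's length was shorter than the GENCODE gene of the same name for 91 of 128 members, equal for 23 and longer for 14. It was under 50% for 7, among them Scarna10 (71 against 325 bases), Scarna2 (61 against 414), Snora20 (61 against 128) and Snord98 (28 against 65), and a shorter length raises the FPKM of the same fragments. A recovered fragment is the most common low step of FPKM times length in a tumor. On this scale the 135 members had a median of 10.2 fragments per tumor, 68 had at least 10 and 19 had under 1. Of the 113 members with a mean of at least 1 FPKM, 22 had under 5 fragments per tumor.

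Fragment values of the members were mostly fractions. Among values up to 20 fragments, 25.3% of the member values were whole within 0.02 fragments and 93.4% were multiples of 0.25, against 48.7% and 98.7% for all other genes. How the authors' counting split fragments is not given in the sources used here. Close copies add to this uncertainty. Of pairs of members with a sequence, 5 were at least 90% identical: Snord50a and Snord50b, Snord14c and Snord14d, Snord1b and Snord1c, Snora73a and Snora73b, and Snord88a and Snord88c, each pair within one host. The level of each of these 10 genes alone is uncertain. For the 40 members with at least 20 fragments, the median coefficient of variation over the 18 tumors was 36.2%, above the 17.9% that counting of whole fragments alone would give. For the 25 members with 1 to 5 fragments the 2 values were 69.4% and 62.2%.

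Summed over all members, the snoRNAs and scaRNAs took a small and variable share of each tumor's fragments, given here as FPM (fragments per 1000000 assigned to genes). The share was 147, 112 and 105 FPM in the PBS tumors, 109, 115.5 and 153 in Free PS473, and 156, 140 and 90.7 in PS473@CPs. It was 123, 127 and 128 in NKMOF-101-[Mn], 94.4, 131 and 63.4 in M5@NKMOF-101-[Mn], and 120, 133 and 33.4 in PS473@NKMOF-101-[Mn]. The groups overlapped throughout, and the NKMOF-101-[Mn] tumors lay closest together. Group means were 122 ± 22.5 (SD, n = 3) for PBS, 126 ± 23.7 for Free PS473, 129 ± 34.1 for PS473@CPs, 126 ± 2.49 for NKMOF-101-[Mn], 96.35 ± 34.0 for M5@NKMOF-101-[Mn] and 95.3 ± 54.1 for PS473@NKMOF-101-[Mn]. The lowest tumor was number 3 of the PS473@NKMOF-101-[Mn] group and the next was number 3 of the M5@NKMOF-101-[Mn] group. Depth did not separate these 2 tumors, at 20400000 and 19800000 recovered fragments in a range of 17200000 to 28400000.

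**Figure D2:**
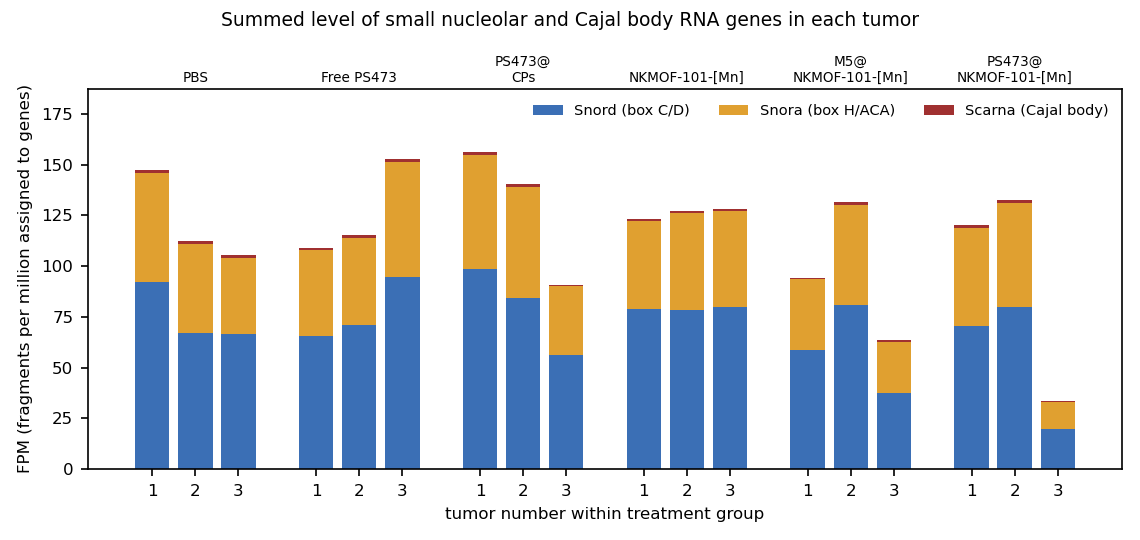
Summed FPM (fragments per 1000000 assigned to genes) for Snord, Snora and Scarna members in each of the 18 tumors. Bars are single tumors, 3 per treatment group, stacked by class. Tumor 3 of PS473@NKMOF-101-[Mn] reaches 33.4 FPM and the other 17 tumors lie between 63.4 and 156.

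The low level in that tumor ran through nearly all members. Of the 113 members with a mean of at least 1 FPKM, 87 had their lowest value of all 18 tumors there, 10 in tumor 3 of M5@NKMOF-101-[Mn], and at most 3 in any other tumor. The same count over all genes tested is not given here. The median member lay 1.48 below its own 18-tumor median on the log2(FPKM + 1) scale, while the median of the 12244 other genes with that mean lay 0.057 below theirs. Snord members summed to 19.9 FPM (37.5 to 98.5 in the other 17 tumors), Snora members to 13.3 (25.0 to 57.0) and Scarna members to 0.122 (0.775 to 1.46). Members wholly in an exon of a host transcript summed to 24.3 (43.5 to 109) and members in introns only to 6.05 (13.9 to 35.3). Both kinds of member were thus low in it.

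Single members gave the same picture. Snord78 read 226, 150.5 and 166 FPKM in PBS, 165, 149 and 243 in Free PS473, 252, 229.9 and 155 in PS473@CPs, 209.7, 204 and 214 in NKMOF-101-[Mn], 156.5, 206 and 106 in M5@NKMOF-101-[Mn], and 185, 207 and 41.9 in PS473@NKMOF-101-[Mn]. Only tumor 3 of the last group fell below 100 FPKM. Snora65 read 60.5, 48.9 and 47.5 FPKM in PBS and 58.9, 60.5 and 16.5 in PS473@NKMOF-101-[Mn]. The first 2 PS473@NKMOF-101-[Mn] tumors lay within the PBS range and tumor 3 below it. Snord12 read 38.4, 26.6 and 32.2 FPKM in PBS and 26.1, 34.4 and 5.75 in PS473@NKMOF-101-[Mn]. Among the first 10 by FPKM, Snora28 kept the largest share of its own median in tumor 3, with 43.0, 42.7 and 19.2 FPKM in PS473@NKMOF-101-[Mn] and 49.3, 37.6 and 26.9 in PBS.

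**Figure D3:**
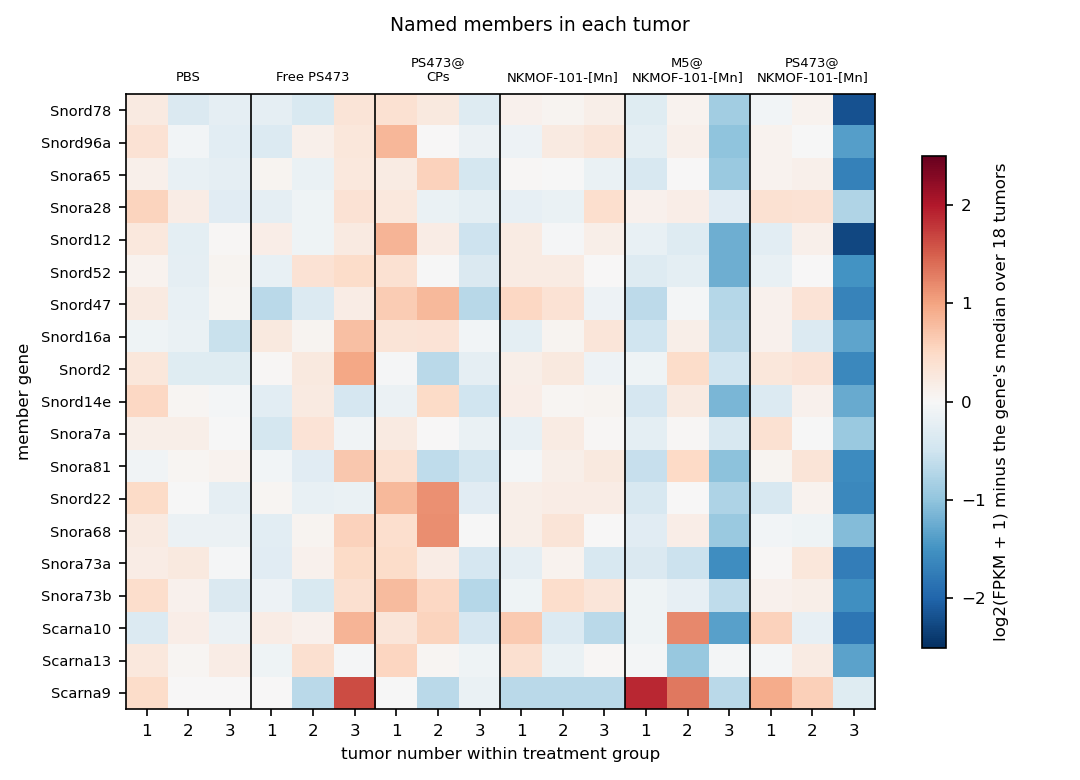
Level of 19 named members in each tumor, as log2(FPKM + 1) minus the gene's own median over the 18 tumors (red above, blue below). Columns are tumors in their treatment groups. Tumor 3 of PS473@NKMOF-101-[Mn] and tumor 3 of M5@NKMOF-101-[Mn] are below the median for all 19 members, as is tumor 3 of PS473@CPs, and the first is the deepest blue.

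Some other RNAs were low with the members in that tumor, and others were not. The host genes in the table, summed, stood at 35860 FPM there and at 31230 to 40190 in the other 17 tumors, so that members came to 0.930 fragments per 1000 host fragments against 1.95 to 4.25 elsewhere. Among hosts, Rack1 (1089 FPKM, 811 to 1338 elsewhere) and Rpl12 (1053, 965 to 1818 elsewhere) lay within the range of the other tumors. Some hosts had their highest value of all 18 tumors there, such as Eef2 (1345 FPKM, at most 1209 elsewhere) and Nop53 (87.5, at most 80.9). Ipo7 (69.8, at most 68.55) and Cop1 (4.07, at most 3.67) did as well. Of the 65 protein-coding hosts of members in the table, 12 had their lowest value of all 18 tumors there, among them Eif4a2 (14.98 FPKM, 20.97 to 30.9 elsewhere), the host of Snord2. Of the 18 hosts of members not typed as protein-coding, 12 did, among them Gas5 (72.1 FPKM, 107 to 212 elsewhere) and Snhg1 (38.3, 45.8 to 99.6 elsewhere). These 18 include the chaperonin gene Cct6a (252 FPKM, 187 to 257 elsewhere). On a separate list of 19 non-coding snoRNA host genes, not all of which held a member here, 14 did. The long nuclear RNAs Malat1, Neat1 and Kcnq1ot1, chosen after their values were seen, were low there too. Malat1 was at 10.1 FPKM (48.2 to 118 elsewhere), Neat1 at 2.55 (17.4 to 39.0) and Kcnq1ot1 at 0.0421 (0.114 to 0.406). In tumor 3 of M5@NKMOF-101-[Mn], by contrast, Malat1 (59.6) and Neat1 (21.03) lay within the range of the other tumors.

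Other short genes gave a mixed picture in that tumor. The 749 microRNA genes under 300 bases with a mean above 0 summed to 574 FPM in it and to 546 to 711 in the others. All genes under 300 bases outside the snoRNA and scaRNA names, microRNA genes included, summed to 730 FPM in it, the lowest of the 18 tumors, and to 754 to 1235 in the others. Its marker lists for melanocyte (8.05), skin epithelium (0.90), leukocyte (1.13), skeletal muscle (1.22), erythroid (6.77) and neuron (0.59) genes, as mean log2(FPKM + 1), were within the range of the other 17 tumors. Genes encoded by mitochondrial DNA summed to 22420 FPM, within 8685 to 53860 elsewhere. The part of these values in the low level of the members was not tested.

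**Figure D4:**
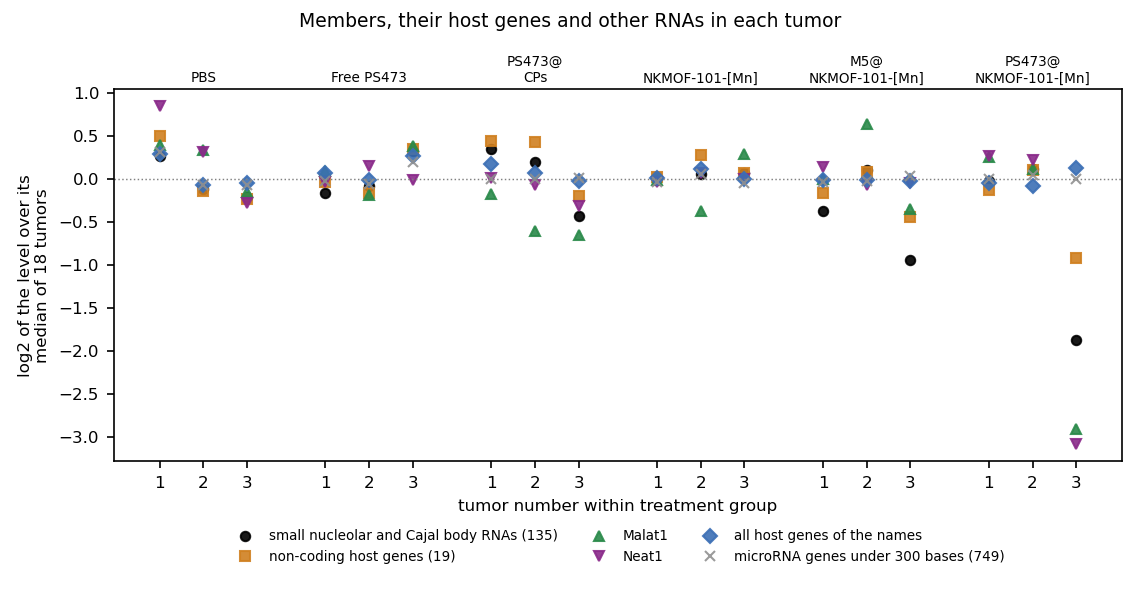
Level of the 135 members, of 2 sets of host genes, of Malat1 and Neat1, and of 749 microRNA genes in each tumor, as log2 of the level over its median of 18 tumors. Each symbol is 1 tumor. In tumor 3 of PS473@NKMOF-101-[Mn] the members, the listed non-coding host genes, Malat1 and Neat1 lie below all other tumors. All hosts together and the microRNA genes lie near 0 there.

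The comparisons asked whether the ribozyme, its carrier or the framework went with a change of these genes. Each was tested with limma on log2(FPKM + 1) over 12357 genes whose mean reached 1 FPKM, 113 of them members. To be called, a gene had to change by over 1 on the log2 scale at an adjusted p under 0.05. In all 9 comparisons 0 of 113 members were called, beside 0% of all genes tested, and limma's voom on recovered fragments also called 0. The F test over the 6 groups called 0 members beside 0% of all genes at an adjusted p under 0.05, with 5 members and 246 of 12357 genes (1.99%) at an unadjusted p under 0.05. The smallest adjusted p of a member in any comparison was 0.781. In this design a missed call does not show that a member stayed the same, since for Snord78 the 95% interval of the log2 difference between PS473@NKMOF-101-[Mn] and PBS ran from -1.57 to 0.38.

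Without adjustment, 0 to 9 of the 113 tested members passed both limits in a comparison. With all 18 tumors, wherever any member passed both limits, the share of members was above the share of all genes given in brackets. This difference was not tested, and 22 of the 113 had under 5 fragments per tumor. Without the fold limit, the 1 member with PS473@CPs against PBS was a smaller share than the 2.09% of all genes. An unadjusted p under 0.05 with the same fold limit was met against PBS by 3 members for PS473@NKMOF-101-[Mn] (0.299% of all genes tested), 0 members for Free PS473 (0.146% of all genes), 0 for PS473@CPs (0.194%), 2 members for NKMOF-101-[Mn] alone (0.0971%) and 3 members for the M5 group (0.138%). For PS473@NKMOF-101-[Mn] it was met by 9 members against the empty framework (0.299%), 5 members against PS473@CPs (0.267%), 2 members against Free PS473 (0.753%) and 2 members against the M5 group (0.0324%). Of these 26 passes, 24 were lower in the first group. Without the fold limit, an unadjusted p under 0.05 was found against PBS for 11 members with PS473@NKMOF-101-[Mn] (2.1% of all genes tested), 0 with Free PS473 (1.81%), 1 with PS473@CPs (2.09%), 4 with NKMOF-101-[Mn] alone (1.46%) and 6 with the M5 group (1.51%). For PS473@NKMOF-101-[Mn] it was found for 12 members against the empty framework (2.3%), 11 against PS473@CPs (2.29%), 9 against Free PS473 (4.98%) and 2 against the M5 group (0.591%). Without tumor 3 of PS473@NKMOF-101-[Mn], the 9 passes against the empty framework became 2 (0.186% of all genes in the same fit), the 3 against PBS became 2 (0.275%), the 5 against PS473@CPs became 4 (0.316%) and the 2 against Free PS473 became 1 (0.955%), while the 2 against the M5 group became 5 (0.154%). Without tumor 3 of M5@NKMOF-101-[Mn] that last count became 6 (0.0971%). Leaving out tumor 2 of PS473@NKMOF-101-[Mn] instead, so that tumor 3 made up 1 of 2 tumors, gave 25 passes against PBS (0.809%), 29 against the empty framework (1.14%), 23 against PS473@CPs (0.753%) and 28 against Free PS473 (1.04%).

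The direction of the members as a whole in the PS473@NKMOF-101-[Mn] comparisons depended on 1 tumor. For PS473@NKMOF-101-[Mn] against PBS the median log2 fold change of the 113 members was -0.50 and 106 were negative, while the median over all genes was -0.01. Without tumor 3 of PS473@NKMOF-101-[Mn] the median was 0.09 and 44 were negative. Against PS473@CPs the median was -0.53 with 95 negative, and 0.04 with 50 negative without that tumor. Against Free PS473 it was -0.54 with 103 negative and became 0.01 with 55 negative. Against NKMOF-101-[Mn] it was -0.53 with 100 negative and became 0.01 with 54 negative. Against the M5 group it was -0.17 with 79 negative and became 0.37 with 19 negative. Without tumor 3 of the M5 group instead, that last median was -0.40 with 94 negative. These 5 comparisons share the PS473@NKMOF-101-[Mn] tumors, so they are not separate pieces of evidence.

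The other groups were compared with PBS in the same way. The median log2 fold change was 0.01 for Free PS473 with 54 of 113 members negative. It was -0.07 with 65 negative for PS473@CPs. It was -0.01 with 57 negative for NKMOF-101-[Mn]. For M5@NKMOF-101-[Mn] it was -0.32 with 100 negative, and without its tumor 3 it was -0.08 with 67 negative. These comparisons share the PBS tumors.

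**Figure D5:**
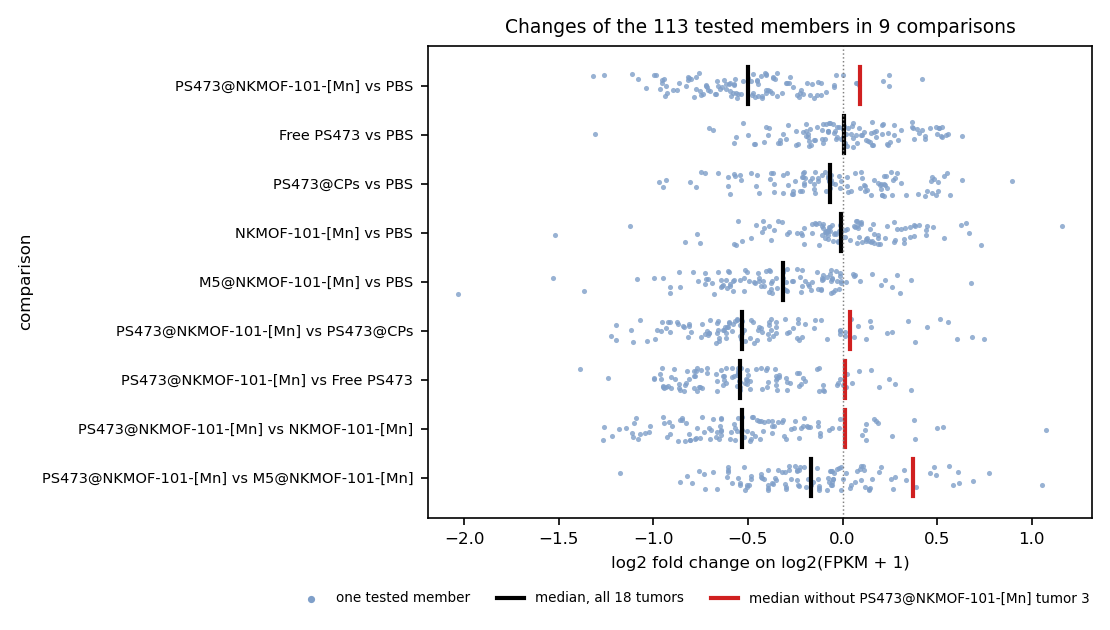
Log2 fold change on log2(FPKM + 1) of the 113 tested members in 9 comparisons. Points are members, black bars are medians with all 18 tumors, and red bars are medians without tumor 3 of PS473@NKMOF-101-[Mn], drawn for the comparisons that use this group. The 5 medians of -0.17 to -0.54 move to between 0.01 and 0.37 without that tumor.

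The members named in the comparisons with PBS by their unadjusted change had under 10 fragments per tumor on average. Snord45c, a box C/D snoRNA in Rabggtb, read 2.14, 3.46 and 0.828 FPKM in M5@NKMOF-101-[Mn] and 9.21, 6.51 and 7.10 in PBS, so the groups did not overlap. Its log2 fold change was -1.53 (SE 0.46, limma unadjusted p = 0.00483, adjusted p = 0.999) at 6.32 fragments per tumor. Snord98, in Ccar1, had the largest change of those named, -2.03 (SE 0.84, limma adjusted p = 0.999), on 2.10 fragments per tumor, and its M5@NKMOF-101-[Mn] values of 0, 5.77 and 0 FPKM overlapped the PBS values of 9.36, 11.0 and 2.73. Snord89 was the one member higher against PBS in this set, at 7.57, 9.57 and 5.39 FPKM in NKMOF-101-[Mn] and 4.52, 3.00 and 1.36 in PBS (log2 fold change 1.16, SE 0.40, limma adjusted p = 1). Snord111, in Sf3b3, read 0, 0.703 and 0 FPKM in NKMOF-101-[Mn] and 0.780, 2.80 and 1.59 in PBS and had under 5 fragments per tumor.

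For PS473@NKMOF-101-[Mn], the named members were low in tumor 3 and some also in tumors 1 and 2. Snora20, in the chaperonin gene Tcp1, read 2.08, 0 and 0 FPKM and overlapped both PBS (1.02, 2.94 and 2.92) and NKMOF-101-[Mn] (3.82, 1.11 and 3.23), on 2.12 fragments per tumor. Snord23, in Nop53, read 0.641, 0 and 0.247 FPKM against 1.77, 1.29 and 2.06 in PBS. Snord35a, in Rpl13a, read 8.79, 7.35 and 2.61 FPKM against 18.7, 20.9 and 7.68 in PS473@CPs, with the lowest PS473@CPs value inside the other group's range (log2 fold change -1.22, SE 0.38, limma adjusted p = 0.996). Snora31, in Tpt1, read 14.1, 12.2 and 2.08 FPKM against 20.03, 24.5 and 12.8 in PS473@CPs.

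The same rule named further members, given with their PS473@NKMOF-101-[Mn] values first. Snord37, in the elongation factor gene Eef2, read 3.79, 8.08 and 2.08 FPKM against 9.38, 12.3 and 16.3 in Free PS473, with no overlap (log2 fold change -1.39, SE 0.43, limma adjusted p = 0.781). Snord1b read 5.63, 7.26 and 0.794 FPKM against 10.7, 9.37 and 9.67 in Free PS473, and its near copy Snord1c makes its level uncertain. Snord88c, also with a near copy, read 2.26, 2.97 and 0 FPKM against 4.09, 4.69 and 5.19 in NKMOF-101-[Mn]. Against the M5 group, Snord38a read 0.717, 1.61 and 0 FPKM against 2.46, 2.95 and 2.78. Snora26, in the non-coding gene Dancr, read 2.10, 4.72 and 2.12 FPKM against 0.480, 1.95 and 0.417, so that here all 3 tumors lay above the M5 group (log2 fold change 1.05, SE 0.31, limma adjusted p = 1).

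The scaRNAs were the least measured members. Of 9 Scarna members, 3 reached a mean of 1 FPKM, and Scarna8 stood just outside at 0.993 while Snora19 stood just inside at 1.02. Scarna10, in Ncapd2, read 1.76, 2.89 and 2.15 FPKM in PBS and 4.17, 2.01 and 0 in PS473@NKMOF-101-[Mn] (log2 fold change -0.37, 95% interval -1.69 to 0.94). Scarna13, in Snhg10, read 2.45, 1.96 and 2.27 FPKM in PBS and 1.77, 2.29 and 0.133 in PS473@NKMOF-101-[Mn] (log2 fold change -0.56, 95% interval -1.30 to 0.17). Scarna9 was above 0 in 12 of 18 tumors, with a highest value of 4.84 FPKM on a length of 42 bases.

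The proteins that bind, build and trim these RNAs were expressed in all tumors, and 0 of them were called in any of the 9 comparisons. This held for the 4 box C/D proteins (Snu13, Fbl, Nop58 and Nop56, the last 2 being hosts of members as well), the 4 box H/ACA proteins (Nhp2, Nop10, Dkc1 and Gar1), 11 assembly factors, 9 Cajal body proteins, 13 genes of snoRNA trimming and decay and 10 genes of RNA polymerase I transcription, and 0 of them passed without adjustment. Fbl, the methyltransferase fibrillarin, stood at 88.9 FPKM (range 73.5 to 110), and Dkc1, the pseudouridine synthase dyskerin, at 33.4 (27.3 to 42.9). In tumor 3 of PS473@NKMOF-101-[Mn] they were at 110 and 29.8 FPKM, and 0 of the 8 proteins of the particles and 0 of the 11 assembly factors had their lowest value there, but 3 of the 9 Cajal body genes (Coil, Tgs1 and Ice1), 3 of the 13 trimming and decay genes (Zcchc7, Zcchc8 and Xrn1) and 2 of the 10 polymerase I genes (Taf1d and Taf1c) did. The choice of these 8 genes followed their values. Other genes went the opposite way and had their highest value in that tumor. Among the particle proteins this was Fbl (110 FPKM, at most 103.5 elsewhere). Among the assembly factors they were Ruvbl2 (78.3, at most 74.6) and Pih1d1 (8.27, at most 7.81). Among the trimming and decay genes it was Mtrex (31.7, at most 29.55). These genes were also chosen after their values were seen. By mean FPKM over all tumors, the highest assembly and Cajal body genes were Ruvbl1 (106 FPKM) and Smn1 (20.9). The highest decay gene was the exosome subunit Exosc9 (40.6), and the highest polymerase I gene was Polr1c (59.0). Of the 19 listed non-coding host genes, Mir17hg included, 16 were tested and 0 were called. Their median log2 fold change was -0.33 for PS473@NKMOF-101-[Mn] against PBS and -0.22 for M5@NKMOF-101-[Mn] against PBS.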

How the data were processed

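Poly(A) RNA of 18 B16F10 tumors was sequenced, and the authors deposited FPKM values for 41079 genes with 1 length per gene. Build GRCm39 is named in the submitters' processing notes, and the aligner, counter and annotation are not given in the sources used here. FPKM times length gives FPM (fragments per 1000000 assigned to genes), and 17200000 to 28400000 fragments per tumor were recovered from the steps of low values. The steps cover counting error only. The intervals given with changes between groups come from limma's standard errors and rest on the spread between tumors within groups.

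The members and gene lists were chosen with earlier results of these data known. The 12357 genes whose mean FPKM reached 1 were tested as log2(FPKM + 1) with limma 3.58.1 in R 4.3.3 (1 mean per group, 18 tumors, trend, Benjamini-Hochberg over all genes), after the procedure was tested on simulated data. Where the text says unadjusted, p is not corrected. The p-values rest on 1 estimate of spread per gene, pooled over the 3 tumors of each of the 6 groups and moderated across genes. Tables were made with Python 3.11.15.

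Named members were the 10 highest by FPKM and by fragments, up to 2 per direction and comparison with the largest change at an unadjusted p under 0.05 beyond the fold limit, the tested Scarna genes and the processing snoRNAs. Hosts and up to 4 genes per list were named with them. Alternatives were other pseudocounts, filters, scalings and tests, a replicate block and leaving out each tumor.

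The labels do not say whether the replicate numbers in the titles mark a shared batch or litter. Deviations from the group means had a median correlation of -0.0187 in the 45 pairs of tumors with the same number and of -0.00535 in the 90 pairs with different numbers, so the numbers were not used as pairs.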

Additional observations from a re-analysis of the deposited data

How the results depend on the processing

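At an adjusted p under 0.05 the number of members called stayed at 0 in all 10 tests under each of the other 31 fits (30 for the F test, which was not run on the groups compared alone), including pseudocounts of 0.1 and 10, filters from none to a mean of 10 FPKM, FPM in place of FPKM, voom, quantile and upper-quartile scaling, no trend and each tumor left out in turn. With the replicate block it was 0 in each of the 10 tests as well, and 4 of 18 tumors correlated best with a tumor of their own number. Taking the unadjusted p gave 3 members for the loaded framework, 2 for the empty framework and 3 for the M5 group against PBS. For the loaded framework it gave 5 members against PS473@CPs, 2 against Free PS473, 9 against the empty framework and 2 against the M5 group, and the F test gave 5. With 1 tumor left out these unadjusted counts ranged from 2 to 25, 1 to 3, 2 to 8, 2 to 23, 1 to 28, 2 to 29, 2 to 6 and 3 to 17, in the same order, and from 0 to 1 for Free PS473 and from 0 to 3 for PS473@CPs against PBS. In these fits without 1 tumor, 0.0324% to 2.14% of all genes passed in the comparisons of pairs of groups and 1.05% to 3.66% in the F test. With the replicate block the first 8 of these counts were 3, 2, 4, 5, 2, 10, 2 and 10. The mean share of the members, 116 FPM over 18 tumors, was 45.5 from members of at least 100 bases and 104 without Snord78. Depth limits the 22 tested members with under 5 fragments per tumor.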
